A study of Homo sapiens with 18 samples.

Results

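HepG2 cells, a human hepatoma line that keeps many functions of hepatocytes, were compared after 48 h of hypoxia and at 0 h. The comparison takes 6 of the 18 RNA-seq libraries of the study: the 3 libraries of HepG2 after 48 h in 1% oxygen and the 3 libraries of HepG2 harvested at 0 h, chosen by their labels, and all genes of the count table. The labels give the HepG2 cells as wild type and those at 0 h as untreated. No transgene or drug is named for them in the study's methods. The other 12 libraries are HepG2 after 24 h of hypoxia and an APOA4-KO line, HepG2 in which APOA4 was edited with CRISPR-Cas9, at 0 h, 24 h and 48 h, each with 3 libraries. They were used to share the estimate of the spread and to test where the 48 h change differed from 24 h or between the lines. The cells at 0 h were the only ones outside hypoxia, so hypoxia and time in culture cannot be told apart in any change given here. The labels do not say whether the 3 libraries of a group came from separate cultures, so the p-values measure the spread between these libraries, which may be technical.

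When oxygen falls, the prolyl hydroxylases of the EGLN family no longer mark the alpha subunits of the hypoxia-inducible factors (HIF) for destruction by the VHL ubiquitin ligase. The stabilized subunits pair with ARNT and bind short hypoxia response elements near their target genes. Known targets in liver cells include glucose transporters and glycolytic enzymes, the hormone erythropoietin, angiogenic factors and proteins that slow mitochondrial fuel use.

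The 6 libraries held 80852233 to 91604947 counts each, and 19743 of 61806 genes passed the filter on low counts and were tested. In each library, more genes held exactly 4, 8 or 12 counts than the values next to these, so a count need not be a single read pair and the totals overstate the precision. All 12 hepatocyte markers listed were detected, and their summed level was 60868 to 61479 at 0 h in CPM, the count scaled by library size and TMM factor, and 67683 to 68112 CPM at 48 h. Endothelial markers summed to 21.7 to 24.2 CPM at 0 h and 21.6 to 23.1 CPM at 48 h, with EMCN at 3 counts or fewer in every one of these libraries. Fibroblast and stellate markers summed to 231 to 233 CPM at 0 h and 238 to 244 CPM at 48 h, cholangiocyte markers to 2073 to 2089 and 2214 to 2238 CPM, and macrophage markers to 1081 to 1095 and 1192 to 1245 CPM, of which LYZ made up a mean of 1039 and 1162 CPM while MARCO was at 3 counts or fewer. The part of other cells in the results was not tested, and in bulk RNA fewer cells of a type and less RNA per cell cannot be told apart. Globin transcripts (HBB, HBA1 and HBA2) split the libraries in a way the groups did not: they summed to 137, 352 and 2.12 CPM at 0 h and to 135, 398 and 108 CPM at 48 h.

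The change after 48 h was wide and mostly small, and its large part lay on the rising side. A log2 fold change is the difference between 48 h and 0 h on the log2 scale, given with a standard error (SE). Adjusted p-values come from edgeR's quasi-likelihood test with Benjamini-Hochberg adjustment over all 19743 genes. The SE was worked back from that test, as the absolute log2 fold change over the square root of the F statistic. At an adjusted p under 0.05, 2584 genes (13.1%) rose, with a median log2 fold change of 0.32, and 2892 genes (14.6%) fell, with a median of −0.28. With a further limit of 2-fold, 279 genes (1.41%) were counted as changed upwards and 151 (0.765%) as changed downwards. The rising genes were the more abundant: 130 of 279 (46.6%) averaged 500 counts or more at 48 h, against 16 of 151 falling genes (10.6%) at 0 h, and 91 of the falling genes (60.3%) averaged under 100 counts. Among genes with at least 500 counts, 54 rose by a log2 fold change of 1.5 or more and 1 fell by as much. That gene was PDXP, with 6945, 6762 and 687 counts at 0 h and 584, 528 and 895 at 48 h. It is named after its values were seen, since the third library at 0 h overlapped those at 48 h.

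The named genes with the largest increases were enzymes of glucose use and pH control, a vasodilator peptide and an oxygen sensor. CA9, a cell-surface carbonic anhydrase that handles acid made by hypoxic cells (chr9:35673856-35681159, GRCh38), had 13.2, 10.4 and 12.7 CPM at 0 h and 95.2, 92 and 101 CPM at 48 h. The groups were far apart, and CA9 rose 7.95-fold (log2 fold change 2.99, SE 0.06, adjusted p = 3.0e-17). PFKFB4, which makes the allosteric activator of phosphofructokinase, went from 55, 52.4 and 55.8 CPM to 395, 394 and 397 CPM (2.86, SE 0.03, adjusted p = 2.1e-21). Its relative PFKFB3 went from 19.9, 18.2 and 18.1 CPM to 122, 114 and 112 CPM (2.63, SE 0.05, adjusted p = 1.2e-17). In both genes the lowest library at 48 h lay several times above the highest at 0 h. PDK1, the kinase that turns off pyruvate dehydrogenase, had 16.9, 16.9 and 15.7 CPM at 0 h and 88.2, 81.2 and 86.5 CPM at 48 h (2.37, SE 0.05, adjusted p = 1.8e-16).

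FUT11, a fucosyltransferase, rose from 2.83, 3.53 and 3.13 CPM to 21.3, 22.9 and 21.2 CPM (2.78, SE 0.07, adjusted p = 2.3e-15). ADM, the vasodilator adrenomedullin, rose from 7.47, 6.94 and 7.96 CPM to 40.6, 39.2 and 40.8 CPM (2.43, SE 0.07, adjusted p = 9.7e-15). EGLN3, an oxygen-dependent prolyl hydroxylase that acts on HIF, rose from 11.2, 9.59 and 9.99 CPM to 46.9, 46 and 45 CPM (2.16, SE 0.05, adjusted p = 2.3e-16). SPAG4, RIMKLA, TUBB1 and the long non-coding RNA LINC02348 also rose without overlap, with log2 fold changes of 2.18, 2.19, 2.74 and 2.36. TUBB1 shares 34% of its exon bases with ATP5F1E, and CA9 shares 38.5% with ARHGEF39, so counting without strand could move reads between these neighbours. MATR3 is the uncertain member of the group: 92.4% of its exon bases lie in other annotated genes, and its 93, 2013 and 774 counts at 0 h stood against 2717, 2462 and 10950 at 48 h. Its log2 fold change of 2.36 (SE 0.68, adjusted p = 0.013) became 1.35 (adjusted p = 0.149) without the third 48 h library and 2.25 (adjusted p = 0.053) without the third 0 h library.

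**Figure D1:**
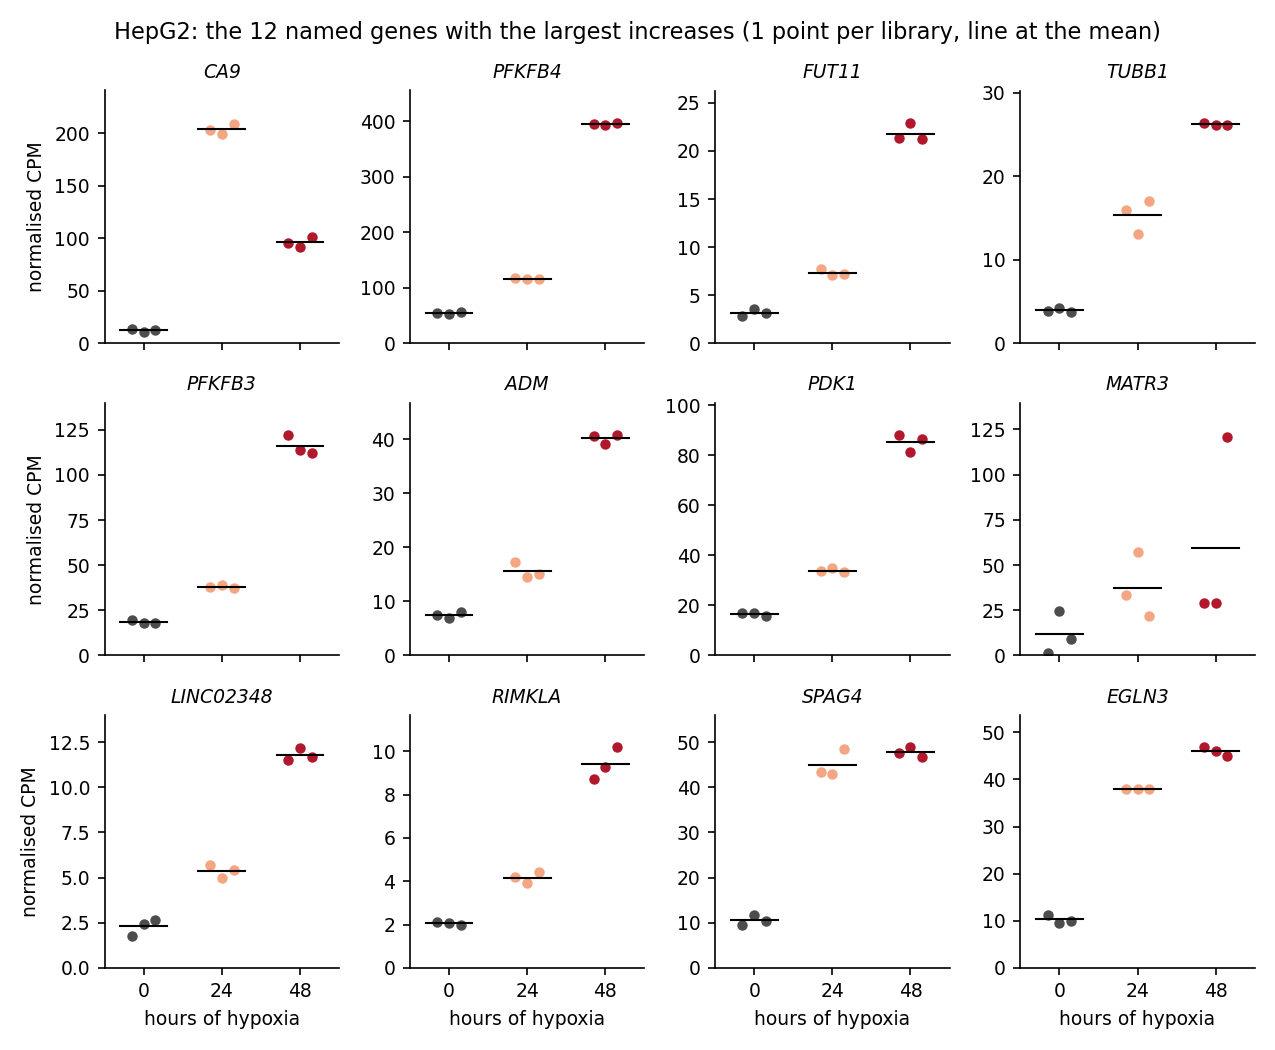
Normalised CPM (y axis, from 0, a scale for each gene) in the 3 HepG2 libraries at 0 h, 24 h and 48 h of hypoxia (x axis) for the 12 named genes with the largest increases at 48 h; each point is a library and the line its group mean. CA9 is at a mean of 204 CPM at 24 h and 96.1 CPM at 48 h, PFKFB4 and FUT11 rise mainly between 24 h and 48 h, and MATR3 alone has 48 h libraries as far apart as 28.9 and 121 CPM.

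The bases before the start of the first 6 rising genes that the RefSeq promoter table lists are shown because HIF is known to bind the core ACGTG or GCGTG. Each line holds the 250 bases before the start in GRCh38.p14, 5′ to 3′ on the strand of the gene, and capitals mark each match to ACGTG or GCGTG on either strand, so that CACGT and CACGC are the same cores read on the opposite strand.
CA9: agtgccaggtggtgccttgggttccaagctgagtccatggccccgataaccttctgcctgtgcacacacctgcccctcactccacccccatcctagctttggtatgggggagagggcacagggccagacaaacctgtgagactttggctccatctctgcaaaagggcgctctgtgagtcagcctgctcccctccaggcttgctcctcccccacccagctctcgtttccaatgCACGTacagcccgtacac
PFKFB4: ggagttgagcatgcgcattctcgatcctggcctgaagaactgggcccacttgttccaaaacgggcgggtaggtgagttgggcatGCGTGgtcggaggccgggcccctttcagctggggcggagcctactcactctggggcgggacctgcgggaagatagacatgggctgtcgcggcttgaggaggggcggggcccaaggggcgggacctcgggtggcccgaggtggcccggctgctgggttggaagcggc
TUBB1: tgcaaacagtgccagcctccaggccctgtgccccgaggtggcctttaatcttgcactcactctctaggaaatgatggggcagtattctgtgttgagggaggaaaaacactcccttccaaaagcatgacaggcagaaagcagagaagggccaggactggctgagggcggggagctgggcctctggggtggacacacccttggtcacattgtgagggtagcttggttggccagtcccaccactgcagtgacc
PFKFB3: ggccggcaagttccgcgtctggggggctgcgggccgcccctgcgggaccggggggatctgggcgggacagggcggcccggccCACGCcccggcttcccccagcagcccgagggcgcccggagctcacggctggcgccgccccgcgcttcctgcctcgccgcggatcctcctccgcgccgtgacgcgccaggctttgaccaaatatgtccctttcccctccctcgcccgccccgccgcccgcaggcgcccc
ADM: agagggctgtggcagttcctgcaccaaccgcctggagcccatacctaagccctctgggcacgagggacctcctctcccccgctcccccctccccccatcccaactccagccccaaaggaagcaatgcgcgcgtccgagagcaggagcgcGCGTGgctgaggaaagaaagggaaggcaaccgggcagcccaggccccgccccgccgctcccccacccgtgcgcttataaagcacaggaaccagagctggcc
PDK1: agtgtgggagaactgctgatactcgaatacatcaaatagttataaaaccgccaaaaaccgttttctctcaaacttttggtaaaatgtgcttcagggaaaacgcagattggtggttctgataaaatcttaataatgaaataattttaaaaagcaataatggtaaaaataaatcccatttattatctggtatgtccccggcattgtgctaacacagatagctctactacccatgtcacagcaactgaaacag
CA9 held its match 18 bases before the start, ADM 101, PFKFB4 166 and PFKFB3 168 bases before it, and no match lay in the 250 bases of TUBB1 and PDK1. The windows lie at chr9:35673678-35673927 (CA9, plus strand), chr3:48556804-48557053 (PFKFB4, minus strand), chr20:59019179-59019428 (TUBB1, plus strand), chr10:6144671-6144920 (PFKFB3, plus strand), chr11:10304823-10305072 (ADM, plus strand) and chr2:172555123-172555372 (PDK1, plus strand). In the full RefSeq window of 300 bases, which runs 50 bases past the start, 105 of 164 genes changed upwards (64.0%) and 58 of 98 genes changed downwards (59.2%) held a match on either strand, beside 60.8% of the 12818 tested genes with a window and 48.4% of all 35116 windows. The pentamer was thus common in every set, and a match is a description of the letters only.

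Of the 5 tested HIF subunit genes, 1 rose and 0 fell, and of the 6 oxygen-sensing hydroxylases and VHL, 2 rose and 2 fell (13.1% and 14.6% of all genes tested). EPAS1, which encodes HIF-2 alpha, had 386, 388 and 385 CPM at 0 h and 489, 480 and 491 CPM at 48 h, a rise of 0.33 (SE 0.02, adjusted p = 1.2e-10) in which the groups did not overlap. HIF1A, the gene of HIF-1 alpha, had 105, 105 and 104 CPM at 0 h and 112, 105 and 115 CPM at 48 h (0.08, SE 0.04, adjusted p = 0.182), although it passed the test without the second 48 h library (0.14, adjusted p = 0.044). Their partner ARNT had 37.9, 38.5 and 39.5 CPM and then 34.3, 37.8 and 35.6 CPM (−0.11, SE 0.04, adjusted p = 0.057), and it too passed without the second 48 h library (−0.13, adjusted p = 0.033). The low-count members ARNT2 (−0.68, SE 0.26, adjusted p = 0.065) and HIF3A (−0.20, SE 0.53, adjusted p = 0.856) did not pass. ARNT2 did pass without the first 0 h library (−0.89, adjusted p = 0.018) or the third 48 h library (−0.85, adjusted p = 0.046). Of the oxygen sensors, EGLN1 rose from 41.6, 40 and 37.7 CPM to 106, 101 and 107 CPM (1.39, SE 0.05, adjusted p = 2.5e-13), beside the rise of EGLN3. EGLN2 fell by 0.56 (SE 0.16, adjusted p = 0.012) with overlapping groups, and its adjusted p was 0.064 without the third 0 h library and 0.052 without the second 48 h library. The entry RAB4B-EGLN2 has 100% of its exon bases in EGLN2 and other genes. It had 562, 0 and 0 counts at 0 h and 884, 1966 and 849 at 48 h. Whether reads moved between these entries was not tested. HIF1AN, the asparaginyl hydroxylase, fell by 0.10 (SE 0.03, adjusted p = 0.034), a call that was lost with any 1 of the 6 libraries left out (adjusted p of 0.055 to 0.297). VHL had 48.1, 50.7 and 47.5 CPM and then 45.7, 44.3 and 48.2 CPM (−0.08, SE 0.05, adjusted p = 0.297). P4HTM, with at most 8 counts in these libraries, had a log2 fold change of −1.98 (SE 1.26, adjusted p = 0.30), and of −5.66 (adjusted p = 0.043) without the first 48 h library.

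Glucose uptake, glycolysis and glycogen formed the widest rise among the metabolic lists. Of 28 tested glycolysis genes, 17 rose and 1 fell at an adjusted p under 0.05 (13.1% and 14.6% of all genes), with a median log2 fold change of 0.62 ± 0.01 (SD over the 3 libraries at 48 h), against −0.03 over all genes tested. For every list, the median is that of the fitted log2 fold changes. The SD is that of separate medians, of the log2 CPM ratio to the 0 h mean in each 48 h library. These library medians need not be centred on the fitted median. The transporter SLC2A3 rose from 440, 429.9 and 442 CPM to 1339, 1349.8 and 1335 CPM (1.62, SE 0.02, adjusted p = 1.2e-19). HK2, the hexokinase that traps glucose in the cell, rose from 79.7, 76.5 and 81.8 CPM to 328, 333 and 328 CPM (2.06, SE 0.02, adjusted p = 2.8e-20). Further steps of the pathway rose less, with log2 fold changes of 1.59 for ENO2, 1.18 for PGK1, 1.17 for LDHA, 1.14 for SLC2A1, 0.67 for PKM and 0.59 for GAPDH. SLC16A3, which carries lactate out of the cell, rose by 1.06 (SE 0.02, adjusted p = 8.6e-17). Among the regulators of pyruvate dehydrogenase, PDK3 rose by 0.64 (adjusted p = 9.8e-07) and PDK2 fell by 0.46 (adjusted p = 2.0e-05), so the kinases did not move together.

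In glycogen metabolism, 8 of 13 tested genes rose and 1 fell, with a median of 0.54 ± 0.05 (SD, n = 3), and the 4 that rose at least 2-fold act in synthesis. PPP1R3C, which brings the activating phosphatase to glycogen, had 9.72, 11.8 and 11.5 CPM at 0 h, 11.1, 13.2 and 12.6 CPM at 24 h, and 36.5, 40.5 and 37.9 CPM at 48 h. Its libraries at 24 h overlapped those at 0 h, and it rose at 48 h by 1.80 (SE 0.08, adjusted p = 8.4e-12) and above 24 h by 1.64 (adjusted p = 2.8e-11). GYS1, the glycogen synthase, had 86.4, 94 and 90.7 CPM at 0 h, 90.2, 86 and 88.2 CPM at 24 h, and 220, 210 and 208 CPM at 48 h (1.24, SE 0.03, adjusted p = 2.4e-15). GBE1, the branching enzyme, rose by 1.40 (SE 0.04, adjusted p = 3.9e-15), and UGP2, which makes UDP-glucose, by 1.05 (SE 0.06, adjusted p = 1.2e-10). The phosphorylase genes moved little: PYGL rose by 0.12 (adjusted p = 0.024) and PYGB fell by 0.22 (adjusted p = 7.5e-05).

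Secreted factors rose with them. Of 18 tested factors known from hypoxia, 12 rose and 1 fell, and 7 rose at least 2-fold (1.41% of all genes), with a median of 0.68 ± 0.06 (SD, n = 3). ANGPTL4, which restrains lipoprotein lipase, rose from 8.66, 10.8 and 10.5 CPM to 33, 32.6 and 32.2 CPM (1.71, SE 0.07, adjusted p = 5.4e-13). EPO, the hormone of red cell production, had 5.06, 4.55 and 6.18 CPM at 0 h, 5.33, 5.77 and 6.35 CPM at 24 h, and 13.1, 13.3 and 13.8 CPM at 48 h. The 0 h and 24 h libraries of EPO overlapped, and those at 48 h lay above both (1.35, SE 0.10, adjusted p = 5.8e-09 against 0 h). VEGFA, the growth factor of blood vessels, rose by 1.14 (SE 0.04), STC2 by 1.20 (SE 0.04) and IGFBP1 by 1.43 (SE 0.07), with adjusted p of 2.1e-14, 1.4e-14 and 1.3e-11.

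Other groups of genes tied to hypoxia rose in part, beside 13.1% of all genes tested that rose and 14.6% that fell. The mitophagy receptors BNIP3 and BNIP3L rose by 1.72 (SE 0.03, adjusted p = 3.0e-17) and 1.77 (SE 0.04, adjusted p = 1.5e-16), while of 16 tested genes of mitophagy and autophagy 4 rose and 3 fell. Of 15 repressors and growth brakes, 9 rose and 2 fell, among them BHLHE40 (1.70), RORA (1.24) and INSIG2 (1.30), which holds back sterol synthesis. Of 19 histone lysine demethylases, which need oxygen to act, 9 rose and 5 fell. KDM3A rose by 1.52 (SE 0.05, adjusted p = 2.9e-14) and KDM4B by 1.08 (SE 0.03, adjusted p = 3.1e-14), and KDM4A fell by 0.47 (SE 0.05, adjusted p = 1.8e-06), although 48.5% of its exon bases are shared with other genes. Of 12 collagen hydroxylases and lysyl oxidases, 7 rose and 2 fell, among them the collagen cross-linking enzyme LOX (1.57, SE 0.03, adjusted p = 2.3e-17).

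All 13 protein-coding genes of the mitochondrial genome fell at 48 h, with log2 fold changes of −0.68 to −0.18 and a median of −0.51 ± 0.01 (SD, n = 3). They encode subunits of the respiratory chain and of ATP synthase. MT-CYB had 2780.2, 2833 and 2805 CPM at 0 h, 3064, 3101 and 3134 CPM at 24 h, and 1737, 1752 and 1758 CPM at 48 h. Its libraries at 48 h lay below all others, and those at 24 h above, and the fall against 0 h was 0.68 (SE 0.02, adjusted p = 1.2e-15). MT-CO3 fell by 0.66 (SE 0.03, adjusted p = 1.6e-11) and MT-ND6, the gene on the other strand, by 0.18 (SE 0.03, adjusted p = 1.1e-04). At 24 h, where 5850 genes (29.6%) passed the test against 0 h, 11 of the 13 had risen and 1 had fallen (11.4% and 18.3% of all genes tested), with a median of 0.32. All 13 were lower at 48 h than at 24 h, as were 11.9% of all genes tested. The count of 13 falling genes was the same under TMM, DESeq2's size factors and library size alone. The mitochondrial share of all counts was 8.22 to 8.48% at 0 h, 8.84 to 8.96% at 24 h and 6.50 to 6.67% at 48 h. The nuclear genes of the respiratory chain did not move with them: of 61 tested, 5 rose and 9 fell, with a median of 0.00.

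Lipid synthesis fell by small amounts in most of its genes. Of 25 genes of cholesterol synthesis and uptake, 21 fell and 0 rose, with a median of −0.34 ± 0.03 (SD, n = 3). LSS, the lanosterol synthase, had 424, 407 and 410 CPM at 0 h and 250, 254 and 239 CPM at 48 h (−0.74, SE 0.03, adjusted p = 1.4e-12). MVK fell by 0.67 (adjusted p = 2.5e-10). Of 23 genes of fatty acid and triglyceride synthesis, 16 fell and 3 rose, with a median of −0.31 ± 0.05 (SD, n = 3). ACSS2, which makes acetyl-CoA from acetate, went from 263, 260 and 263 CPM to 158, 160 and 150 CPM (−0.74, SE 0.03, adjusted p = 1.1e-12), and FASN, the fatty acid synthase, fell by 0.55 (SE 0.03, adjusted p = 3.0e-11). DGAT1 and DGAT2, which close the synthesis of triglycerides, were lower at 24 h than at 48 h: DGAT1 had a mean of 215, 84.5 and 154 CPM at 0 h, 24 h and 48 h. In the list of lipid droplets and lipases, 7 of 18 fell, while PLIN2, the coat protein of droplets, rose by 1.46 (SE 0.02, adjusted p = 8.3e-19) and HILPDA, an inhibitor of droplet lipolysis, by 1.18 (SE 0.08, adjusted p = 1.2e-09).

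The targets of ATF4, the transcription factor of the amino acid response, fell in most members. Of 32 tested genes of ATF4 and amino acid supply, 26 fell and 3 rose, with a median of −0.41 ± 0.05 (SD, n = 3), and 18 were lower at 48 h than at 24 h. SLC6A9, a glycine transporter, had 39.3, 42.1 and 42.4 CPM at 0 h, 32.1, 31.8 and 34.7 CPM at 24 h, and 16.6, 18.2 and 17 CPM at 48 h (−1.26, SE 0.07, adjusted p = 8.6e-11). ASNS, the asparagine synthetase, had a mean of 61.1 ± 0.91, 59.0 ± 1.88 and 33.9 ± 1.5 CPM (SD, n = 3) at the 3 time points, and fell by 0.85 (SE 0.05, adjusted p = 1.2e-10). It shares 44.6% of its exon bases with an antisense entry. CTH, an enzyme of cysteine synthesis, fell by 0.92 (SE 0.13, adjusted p = 1.8e-05) and the cystine transporter SLC7A11 by 0.71 (SE 0.11, adjusted p = 4.4e-05). The chaperones of the endoplasmic reticulum did not share this fall, with 8 of 22 genes of the unfolded protein response rising, 4 falling and a median of 0.03 (0.04 to 0.10 with any 1 library left out).

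Most genes of mitosis and DNA replication were lower at 24 h than at 0 h and higher at 48 h than at 24 h, while at 48 h fewer of them differed from 0 h. In the list of mitosis, 25 of 32 genes had fallen at 24 h, with a median of −0.32, and at 48 h 17 had risen and 4 had fallen against 0 h, with a median of 0.22 ± 0.01 (SD, n = 3). Between 24 h and 48 h, 31 of the 32 increased and none decreased (18.7% and 11.9% of all genes tested). In DNA replication, 27 of 36 genes had fallen at 24 h, and at 48 h 13 had risen and 2 had fallen, with a median of 0.11 ± 0.01 (SD, n = 3), while 21 did not pass. The 4 genes of mitosis that fell were CDC20, AURKB, CDC25B and ESPL1, named after their values were seen. The call of CDC25B was lost without the first 0 h library (adjusted p = 0.069), and that of ESPL1 without the first or the third 0 h or the first 48 h library (adjusted p = 0.114, 0.064 and 0.087). TOP2A, the topoisomerase that untangles chromosomes, had 156, 163 and 158 CPM at 0 h, 118, 127 and 127 CPM at 24 h, and 214, 218 and 215 CPM at 48 h, so that the 3 groups did not overlap. It rose by 0.44 (SE 0.03, adjusted p = 4.2e-09), and CENPE, a kinetochore motor, rose by 0.81 (SE 0.12, adjusted p = 3.1e-05). CDKN1A, which encodes an inhibitor of cyclin-dependent kinases, fell from 323, 316 and 328 CPM to 193, 193 and 183 CPM (−0.76, SE 0.03, adjusted p = 7.6e-14), and CCNG2, an atypical cyclin of arrested cells, rose by 0.83 (SE 0.07, adjusted p = 3.3e-08).

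**Figure D2:**
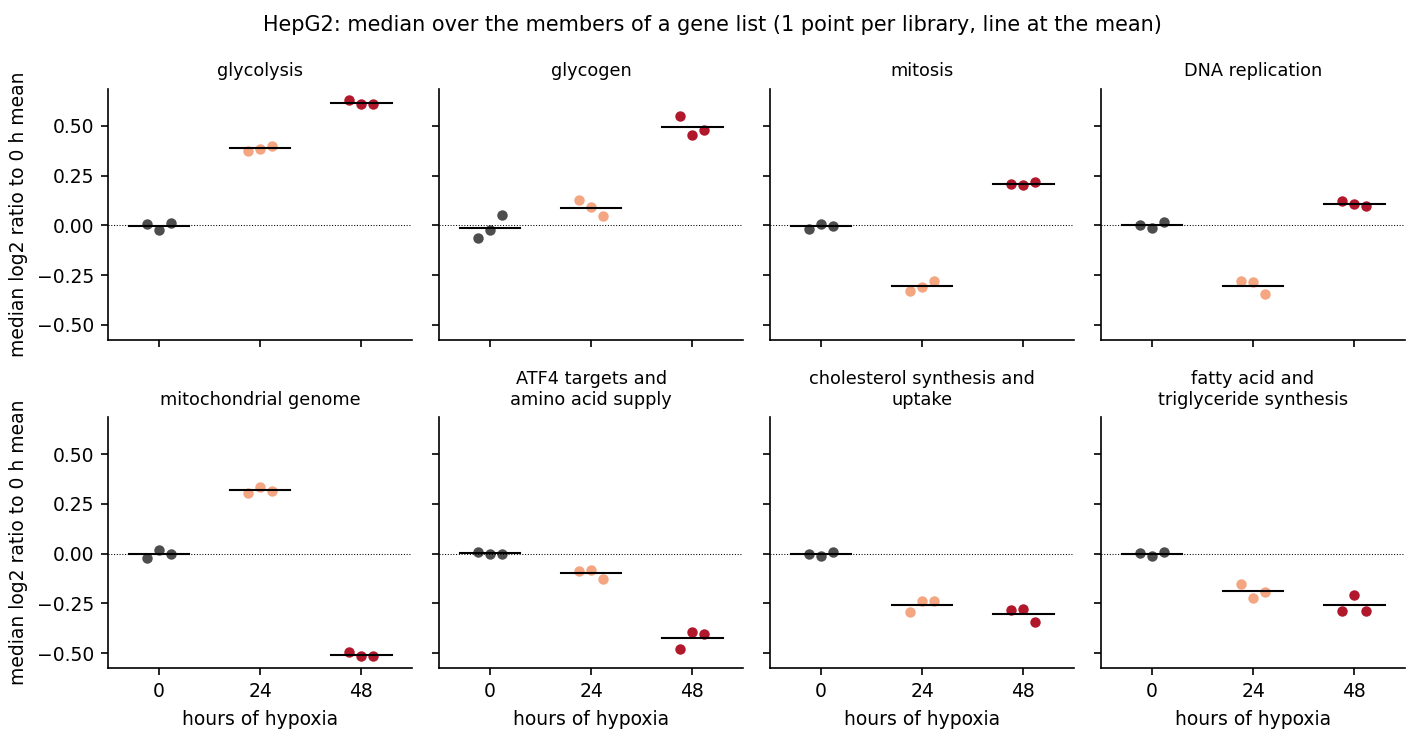
Median log2 ratio to the 0 h mean over the tested members of 8 gene lists (y axis, 1 scale for all) in each HepG2 library at 0 h, 24 h and 48 h of hypoxia (x axis); points are libraries and lines their means. Glycolysis climbs at both times, glycogen mainly after 24 h, mitosis and DNA replication dip at 24 h and stand above 0 at 48 h, the mitochondrial genome goes from above 0 at 24 h to about −0.5 at 48 h, and the ATF4 list falls mainly after 24 h.

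The remaining hepatocyte functions moved in both directions, beside 13.1% of all genes tested that rose and 14.6% that fell. Of 50 secreted plasma proteins, 21 fell and 9 rose, with a median of −0.07, and of 36 drug-metabolizing enzymes 14 fell and 2 rose, with a median of −0.19. Of 20 genes of bile acid synthesis and transport, 7 fell and 2 rose (median −0.18, or −0.12 without the third 48 h library), and of 22 hepatocyte transcription factors 9 fell and 3 rose. Of 22 genes of apolipoproteins and lipoprotein assembly, 9 rose and 4 fell (median 0.19). In gluconeogenesis 4 of 9 genes fell and 1 rose, with a median of −0.40 ± 0.22 (SD, n = 3) that was −0.04 without the first 0 h library and −0.18 without the second 48 h library. The medians in the 48 h libraries, from which that SD came, were −0.082, −0.469 and −0.103 and not centred on −0.40. In fatty acid oxidation 11 of 36 fell and 5 rose, with a median of −0.08, or −0.05 without the first 0 h or the second 48 h library. The 70 cytosolic ribosomal protein genes, of which 20 rose and 0 fell, had a median of only 0.07 at 48 h. Of these, 36 were lower and 4 higher at 48 h than at 24 h (11.9% and 18.7% of all genes tested). That count depends on the scaling: with library size alone 18 were lower and 8 higher, with a median of −0.04.

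Over all genes tested, 13.1% rose and 14.6% fell, shares that belong beside each list of this paragraph. Of 22 genes of NF-kB and inflammation, 6 rose and 6 fell, and 5 of those that fell did so by at least 2-fold from low counts. They are named after their values were seen. IL6, the acute-phase cytokine, had 46, 85 and 48 counts at 0 h and 0, 0 and 0 at 48 h. That is 21.4-fold lower if a floor of 3 counts per library stands in for 0. CCL2, a monocyte chemokine, had 47, 21 and 26 counts and then none, 11.2-fold lower against that floor. CXCL5 had 4, 20 and 12 counts and then none, 4.32-fold lower. A count need not be a single read pair, so these folds are not lower bounds. The neutrophil chemokine CXCL8 had 222, 166 and 233 counts and then 93, 61 and 111 (−1.34, adjusted p = 4.4e-04), and CXCL1 had 120, 92 and 74 counts and then 0, 28 and 0 (−3.39, adjusted p = 0.0066). The fibroblast marker LUM, an extracellular matrix proteoglycan, had 28, 32 and 9 counts at 0 h and then none, 8.23-fold lower against the same floor. DCN, another such marker, had at most 7 counts in these libraries and 3 or fewer at 48 h. The most abundant markers of that list moved apart: from 0 h to 48 h the mean of TAGLN went from 69.3 to 98.9 CPM and that of ACTA2 from 132 to 101 CPM. Any part of such cells in the falls of these cytokines was not tested. Of 25 immediate early genes, 7 rose and 7 fell (median −0.16), and of 22 interferon-stimulated genes 2 fell and 0 rose. Of the other lists, 7 of 17 citric acid cycle genes fell and 1 rose, 6 of 53 mitochondrial ribosomal proteins rose and 8 fell, 11 of 25 genes of ribosome biogenesis rose and 4 fell, and 5 of 14 G1 cyclins and inhibitors rose and 3 fell. In the lists of antioxidant genes, iron handling, p53 targets and extracellular matrix, 6 of 27, 7 of 19, 5 of 27 and 5 of 32 rose, and 9, 7, 11 and 9 fell. Of 13 genes of pyruvate dehydrogenase control 4 rose and 4 fell, and of 10 genes of acid and lactate export 3 rose and 1 fell. Among the cell type markers, 6 of 12 hepatocyte, 2 of 11 macrophage, 1 of 8 endothelial, 2 of 9 fibroblast and 4 of 8 cholangiocyte genes rose, and 2, 1, 0, 2 and 1 fell.

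The 12 largest decreases, chosen like the increases among abundant genes whose groups did not overlap, were smaller. Besides SLC6A9, they included JDP2, a repressor of AP-1, with 13.7, 15.2 and 15.6 CPM at 0 h and 7.08, 6.37 and 5.98 CPM at 48 h (−1.20, SE 0.11, adjusted p = 9.5e-08). TBX2, a T-box repressor, had 13.9, 14 and 13.8 CPM and then 7.21, 5.47 and 5.73 CPM (−1.18, SE 0.14, adjusted p = 2.8e-06). CEBPB, a transcription factor of the acute-phase response, had 20.6, 26.5 and 19.7 CPM and then 8.65, 8.27 and 12.6 CPM (−1.18, SE 0.30, adjusted p = 0.0052). SEC14L5 and PRIMA1 each fell by 1.16 on the log2 scale, with adjusted p of 1.5e-07 and 1.3e-04, and EME2 by 1.21 (adjusted p = 0.0098), with 30% of its exon bases in SPSB3. The other 5 depended on 1 or a few libraries. CITED4 (−1.36, adjusted p = 0.0090) lost its call without the second 48 h library (−1.13, adjusted p = 0.057). SH3BP1 (−1.19) had 23.6, 22.3 and 9.71 CPM at 0 h and was at −0.96 without the first of these, and LIME1 (−1.18) was at −0.86 without the third 48 h library. ANTKMT (−1.06) dropped under 2-fold without the second 0 h library (−0.99) or the first or second 48 h library (−0.96 and −0.94). PCSK1N (−1.02), with 17, 18.8 and 43.7 CPM at 48 h, was at −1.0 (adjusted p = 0.049) and −0.99 (adjusted p = 0.050) without the first and second 0 h libraries and no longer passed without the first or second 48 h library (adjusted p = 0.109 and 0.106). Without the third 48 h library, its log2 fold change was −1.57 (adjusted p = 3.6e-04).

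**Figure D3:**
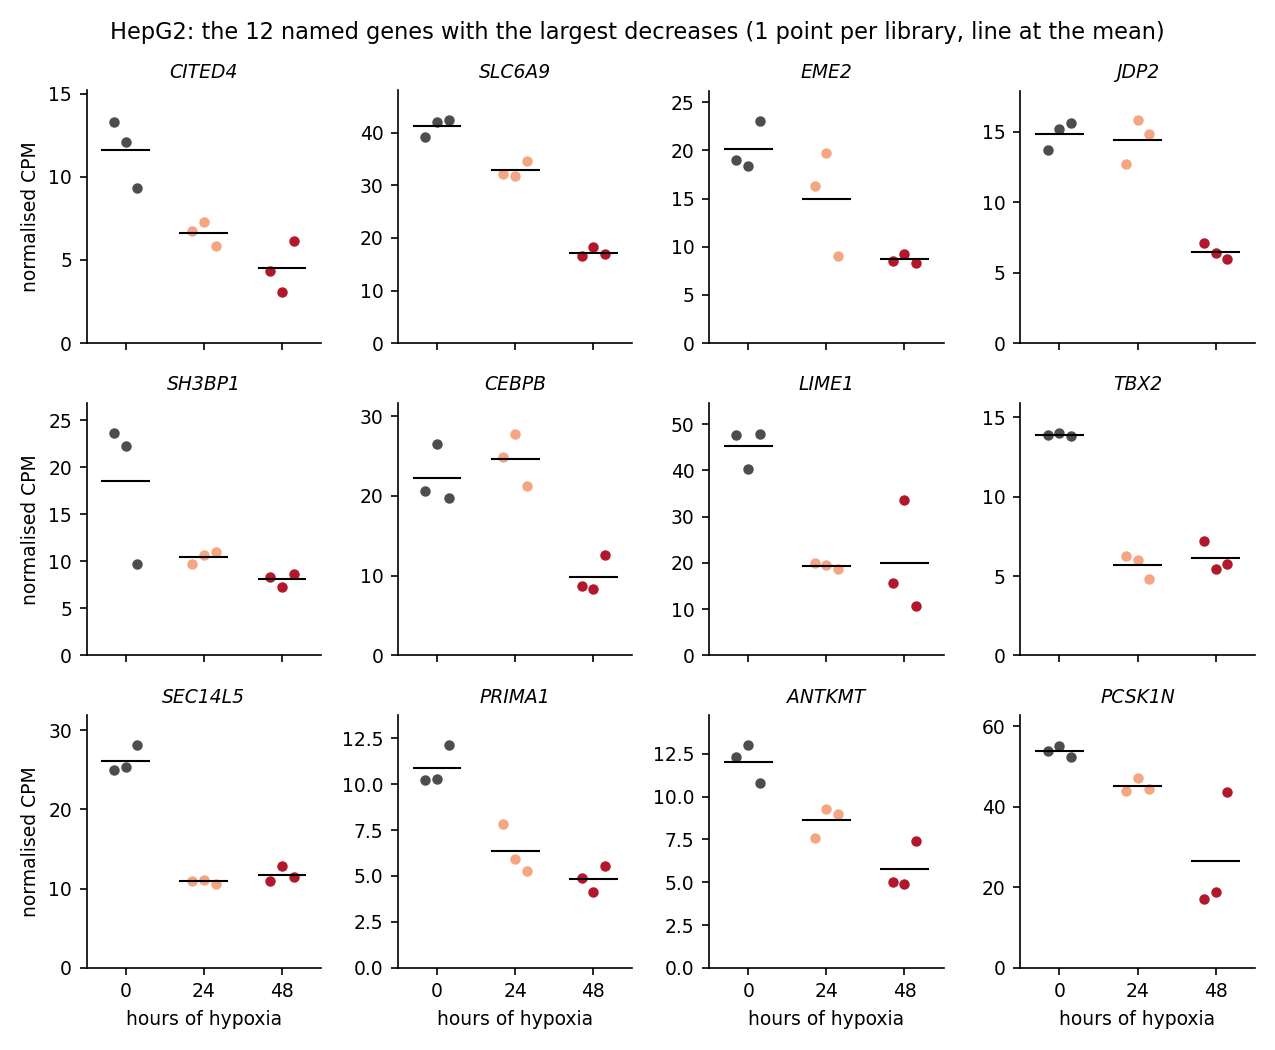
Normalised CPM (y axis, from 0, a scale for each gene) in the 3 HepG2 libraries at 0 h, 24 h and 48 h of hypoxia (x axis) for the 12 named genes with the largest decreases at 48 h; each point is a library and the line its group mean. SLC6A9, JDP2, TBX2 and SEC14L5 have narrow groups, while SH3BP1, LIME1 and PCSK1N each have a library that stands apart from the others of its group.

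The 48 h libraries were also set against the 24 h libraries. By the same limits 608 genes (3.08%) were changed at 24 h against 0 h, 407 (2.06%) upwards and 201 (1.02%) downwards. Between 24 h and 48 h, 136 genes (0.689%) changed upwards and 282 (1.43%) downwards, 418 (2.12%) in all. With library size alone these were 192 upwards and 238 downwards, so this split depends on the scaling. Of the 279 genes changed upwards at 48 h against 0 h, 115 were higher at 48 h than at 24 h and 20 were lower at an adjusted p under 0.05 (18.7% and 11.9% of all genes tested), and of the 151 changed downwards 58 were lower and none higher. These genes were chosen with the 48 h libraries that enter both comparisons, so the counts are a description. Among changed genes that met the count limits of the named genes and did not overlap between 0 h and 48 h, the steepest later rises were GPR146 (1.95, adjusted p = 1.5e-04), PFKFB4 (1.77, adjusted p = 4.4e-18), PPP1R3C (1.64), PFKFB3 (1.61, adjusted p = 1.6e-14) and FUT11 (1.57, adjusted p = 4.7e-12). GPR146, an orphan receptor, shares 50.3% of its exon bases with C7orf50 and another entry. The steepest later falls were IGFBP1 (−1.47, adjusted p = 9.1e-12), CEBPB (−1.32, adjusted p = 0.0018), HAL (−1.29, adjusted p = 1.0e-08), JDP2 (−1.16, adjusted p = 1.1e-07) and CCL20 (−1.15, adjusted p = 5.3e-12). IGFBP1, which binds insulin-like growth factors, had 289, 296 and 305 CPM at 0 h, 2199, 2229.9 and 2204 CPM at 24 h, and 739.7, 748 and 913 CPM at 48 h. CCL20 and HAL, a chemokine and the first enzyme of histidine breakdown, were still higher at 48 h than at 0 h (1.04 and 1.02). CCL20 was at 0.98 without the second 48 h library, and HAL at 0.99 and 0.95 without the first or the third 0 h library. G6PC1, the last enzyme of glucose release, had a mean of 11.3 ± 1.25, 76.3 ± 1.63 and 7.11 ± 0.55 CPM (SD, n = 3), and fell by 0.67 (SE 0.06, adjusted p = 2.5e-07) against 0 h.

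In the APOA4-KO line, taken as a single line, the change from 0 h to 48 h differed from that of HepG2 in 7178 genes (36.4%) at an adjusted p under 0.05 and by 2-fold or more in 1464 (7.42%), of which 677 (3.43%) were more positive and 787 (3.99%) more negative in APOA4-KO. The split depends on the scaling, since with library size alone it was 464 and 1206, and the median difference over all genes moved from −0.04 to −0.21. Of the 279 genes changed upwards in HepG2, the difference was more positive in APOA4-KO for 66 (23.7%) and more negative for 72 (25.8%). These counts use the adjusted p alone, beside 18.6% and 17.8% of all genes tested, and the other 141 did not pass. The HepG2 libraries that chose these genes enter the difference, so this too is a description. PFKFB4 (−1.32, adjusted p = 6.4e-15), PDK1 (−1.07, adjusted p = 1.0e-09), RIMKLA (−1.16, adjusted p = 4.4e-07) and LINC02348 (−1.24, adjusted p = 1.3e-04) rose more in HepG2. Among genes changed in HepG2, large differences in the other direction were those of SLC16A6 (2.24), CCL20 (2.08), A4GALT (1.72) and FAM110C (1.61), and the further negative ones were MATR3 (−2.41, adjusted p = 0.048), TMEM200A (−1.49), SLC30A10 (−1.48) and HAVCR1 (−1.35). Without the third 0 h library, the HepG2 change of SLC16A6 was 1.00 on the log2 scale, at the limit of 2-fold. The differences between the lines for CA9 and PFKFB3 (0.43 and 0.40) were under 2-fold. APOA4 itself had 8.95, 9.67 and 8.46 CPM at 0 h and 18.9, 19.9 and 21.7 CPM at 48 h in HepG2 (1.16, SE 0.08, adjusted p = 2.9e-09), and shares 43.1% of its exon bases with AP006216.3.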

How the data were processed

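RNA-seq of HepG2 and APOA4-KO cells (6 groups of 3 libraries, grouped by their labels) was deposited as 2 tables. Per the study's methods, the authors trimmed paired reads of 150 bases, aligned them to GRCh38.p13 with HISAT2 and counted reads per gene with featureCounts, whereas the submitters' processing notes name fastp, HISAT2 and StringTie. The deposited gene counts are whole numbers without normalization, and the deposited FPKM values are scaled by the authors for length and depth. Whether counting used strand is not given in the sources used here. Of the columns of per-sample values, all were matched to a sample.

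For the tests, edgeR 4.0.16 was run on the counts in R 4.3.3 (filterByExpr over the 6 groups, TMM, quasi-likelihood test, 1 coefficient per group, all 18 libraries). Changed genes had a Benjamini-Hochberg adjusted p under 0.05 over all genes tested and at least 2-fold. On simulated counts for 19743 genes in HepG2 48 h against 0 h, 54% of 100 2-fold and 65% of 100 4-fold changes were recovered, with 4 false calls. A recovery here was an adjusted p under 0.05 in the right direction, without the 2-fold limit. The counts were drawn from edgeR's own model and fitted spread, so these shares need not hold for the deposited counts. The 12 largest named genes in each direction had a symbol, no overlap between groups, 10 or more counts in each library and an average of 500 or more in the group where the gene was higher. Others were the up to 4 largest and the 2 opposite changes in each list that averaged as much, all HIF and oxygen-sensor genes, and the 5 largest differences in each direction from 24 h and between the lines. APOA4 and EPO, and members named to show low counts, a level that did not pass or a time course, came beside these, and a few genes that the rule names are not reported here. The members and the 44 lists were chosen with earlier results of these data known. Lists were described by counts and medians, with no test. Positions and shared exon bases came from GENCODE 29 and promoters from RefSeq. Alternatives were the 6 libraries alone, DESeq2 1.42.0, other scalings and filters, counts divided by 4, the replicate number as a block, limma 3.58.1 on log2(FPKM + 1) or log2(FPKM + 0.1), and leaving out each library.

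Same-numbered libraries of 0 h and 48 h did not deviate together (r of −0.013, −0.019 and −0.032), so the numbers were not taken as pairs.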

Additional observations from a re-analysis of the deposited data

Results flagged for a closer look

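Each difference here passed its own test at an adjusted p under 0.05 in edgeR's quasi-likelihood test and reached 2-fold, and is on the log2 scale. Between 24 h and 48 h in HepG2, 418 genes changed, and for 1464 genes the change from 0 h to 48 h differed between the lines.

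Of the genes named for their size at 48 h, some were higher at 48 h than at 24 h: PFKFB4 by 1.77, PPP1R3C by 1.64, PFKFB3 by 1.61, FUT11 by 1.57, ADM by 1.36, PDK1 by 1.33, EPO by 1.20, RIMKLA by 1.17 and LINC02348 by 1.13. Further such genes were GPR146 (1.95), FAM110C (1.03) and SLC30A10 (1.02). Lower at 48 h than at 24 h were IGFBP1 (−1.47), CEBPB (−1.32), HAL (−1.29), JDP2 (−1.16), CCL20 (−1.15) and CA9 (−1.09).

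In APOA4-KO minus HepG2, the change from 0 h to 48 h was more positive for SLC16A6 (2.24), CCL20 (2.08), A4GALT (1.72), FAM110C (1.61), EGLN3 (1.40), CEBPB (1.32) and ADM (1.15). It was more negative for MATR3 (−2.41), TMEM200A (−1.49), SLC30A10 (−1.48), HAVCR1 (−1.35), PFKFB4 (−1.32), LINC02348 (−1.24), RIMKLA (−1.16), PDK1 (−1.07), APOA4 (−1.07) and TUBB1 (−1.05). APOA4 is the gene edited in APOA4-KO, and what the edit did to its counts was not tested. The APOA4-KO cells are a single line, so an effect of the edit and of the line cannot be told apart. Only genes named for their size, their differences or the design and reported here were screened, and groups of 3 libraries were not tested for a library that stands apart.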

How the results depend on the processing

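Of 3539 refits of 209 named genes, 3420 left the call as it was. None of the 203 that had passed the test changed direction, and HIF3A, which had not, ran from −0.44 to 0.10. Likewise 155 of 181 refits of 11 gene counts stayed within 1.5 times. With limma on log2(FPKM + 1), changed genes at 48 h numbered 76 (70 higher, 6 lower), or 81 (73 and 8) at a mean FPKM of at least 1; with log2(FPKM + 0.1) they numbered 282, with 60 lower. The pseudocount shrinks low genes by construction. The lower ones were 227 with DESeq2 and 97 with at least 1 CPM in 3 libraries. Between 24 h and 48 h, the FPKM fits gave 46 (29 higher, 17 lower) and 50 (31 and 19), with 137 lower at the smaller pseudocount and 434 lower with DESeq2. For the line difference they gave 415 (178 and 237) and 407 (173 and 234), with 384 higher at the smaller pseudocount, and library size alone gave 1206 lower.

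Without 1 library, the changed genes at 48 h numbered 385 to 434 (260 to 306 higher, 112 to 158 lower), and those past the adjusted p alone 2404 to 2505 and 2175 to 2327. The counts were 364 to 425 (132 to 147 and 226 to 279) between 24 h and 48 h and 1409 to 1441 (668 to 688 and 721 to 769) for the line difference. With the replicate block, 403 genes changed (267 higher, 136 lower), and no pairing was seen.

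Of 748 refits of list medians, 458 moved by less than the SD over the 48 h libraries, 275 moved by more and 15 changed sign from beyond it; the cause was not tested. Gluconeogenesis ran from −0.51 to −0.04 without 1 library. The HIF subunits came to 0.02 with the 6 libraries alone, 0.09 with FPKM of at least 1 and −0.10 to 0.10 without 1 library (positive without the third 0 h library); pyruvate dehydrogenase control to −0.11 to 0.01 (positive without the second 0 h library) and acid and lactate export to −0.03 to 0.13 (negative without the first). The immediate early genes came to −0.16 to 0.03 (positive without the first 0 h or the second 48 h library). The NF-kB genes came to 0.09 with the 6 libraries, 0.04 with at least 1 CPM, 0.13 with FPKM of at least 1, and −0.20 to 0.08 without 1 library (0.06, 0.08 and 0.07 without the first or the second 0 h or the first 48 h library). The endothelial markers came to −1.61 to 0.05 (positive without the third 0 h library) and the fibroblast markers to 0.42 with FPKM of at least 1. Low counts limit the falling genes most.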

Other observations

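Genes whose counts switched between libraries of a group were chosen after their values were seen. Of 19743 tested genes, 141 (0.714%) had a highest count of at least 100 that was at least 10 times the lowest within the 0 h or the 48 h group. Of the 132 with an annotation, 101 (76.5%) shared exon bases with another gene, against 50.4% of annotated genes with a count of at least 100 in a library. Among the 430 changed genes there were 10 (2.33%), and all 10 shared exon bases. The read-through gene BIVM-ERCC5 had 0, 0 and 0 counts at 0 h and 0, 1687 and 0 at 48 h, and ISY1-RAB43 had 1109, 0 and 1178 at 0 h and 0, 0 and 0 at 48 h. Neither passed the test (adjusted p = 0.085 and 0.106, edgeR).

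Among the 6 libraries compared, blood genes, also chosen after their values were seen, set the third 0 h library apart. The summed globins varied in the other libraries too, from 12.9 to 229 CPM in HepG2 at 24 h and from 4.85 to 506 CPM in APOA4-KO. HBB, the beta chain of haemoglobin, had 7211, 19967 and 34 counts at 0 h and 7280, 19172 and 6159 counts at 48 h (adjusted p = 0.949, edgeR). The leukocyte gene PTPRC had 275, 338 and 4 counts at 0 h and 254, 213 and 207 at 48 h, and MNDA had 189, 187 and 0 and then 204, 181 and 235. FCGR3B, a receptor of neutrophils, had 327, 127 and 0 counts and then 280, 194 and 431. Without the third 0 h library, 393 genes changed at 48 h, 271 upwards and 122 downwards, against 430, 279 and 151 with it.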
